A study of Mus musculus with 2 samples.

Results

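The genes described here are 7 of sterol metabolism: Hmgcs1, Idi1, Fdps, Fdft1 and Sqle, which encode enzymes of cholesterol synthesis, Insig1, which encodes a sterol sensor, and Ch25h, which encodes cholesterol 25-hydroxylase. The set was selected on the log2 difference between the genotypes measured on these same arrays, and its members were found as the probes that the platform's annotation assigns to 1 of these gene symbols. Of the 7 genes, 6 had a probe, with 7 probes in all because Idi1 had 2. They stand among 13840 named genes on the array. No probe was assigned to Fdps, so it has no value here.

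RNA of mouse lung was measured on 2 arrays, 1 for each genotype, 12 weeks after a carcinogen protocol that both groups went through. One array held lung of wild-type male FVB/N mice. The other held lung of Rosa26-Foxm1 mice, which carry a transgene for the cell cycle transcription factor Foxm1 and are named for the Rosa26 promoter, a promoter active in most cell types; their sex and strain are in none of the labels used here. This second group is also called the transgenic lung below. Every mouse was given 3-methylcholanthrene (MCA), a polycyclic hydrocarbon carcinogen, once at 15 µg/g, and then butylated hydroxytoluene (BHT), which promotes lung tumours, in 6 weekly injections of 150 µg/g for the first and 200 µg/g for the rest. The left lung lobes of 3 mice were pooled for each array, so differences between mice cannot be seen, and no untreated lung is part of the comparison.

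Cells make cholesterol from acetyl-CoA through mevalonate, isoprenoid diphosphates, squalene and lanosterol. The genes of this pathway are switched on together by the transcription factor SREBP-2 when sterols in the endoplasmic reticulum are low, and the Insig proteins hold SREBP and its escort Scap back when sterols are high. Ch25h adds a hydroxyl group to cholesterol to give 25-hydroxycholesterol, an oxysterol that binds Insig proteins and can activate the nuclear receptor LXR. In macrophages Ch25h is an interferon-inducible gene, and in lung the alveolar type II cell and the macrophage are known for heavy lipid traffic.

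The promoters of the members are shown because the sterol response of this pathway is read there, and because Ch25h stood apart from the other members in the data. The RefSeq promoter table (GRCm38.p6) held 4 of the 7 genes. Each sequence is the 250 bases before the gene's annotated start, 5′ to 3′ on the strand of the gene. Capitals mark matches, on either strand, to the sterol regulatory element (TCACNCCAC), to the NF-Y box (CCAAT) or to the cAMP response element (TGACGTCA). The windows are chr13:119690101-119690350 on the plus strand for Hmgcs1, chr13:8885356-8885605 on the plus strand for Idi1, chr5:28071162-28071411 on the plus strand for Insig1 and chr19:34475149-34475398 on the minus strand for Ch25h.
Hmgcs1: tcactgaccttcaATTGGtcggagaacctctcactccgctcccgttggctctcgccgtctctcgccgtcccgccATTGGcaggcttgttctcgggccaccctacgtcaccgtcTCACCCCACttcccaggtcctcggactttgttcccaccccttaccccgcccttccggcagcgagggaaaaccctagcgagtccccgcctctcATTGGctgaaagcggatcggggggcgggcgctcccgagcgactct
Idi1: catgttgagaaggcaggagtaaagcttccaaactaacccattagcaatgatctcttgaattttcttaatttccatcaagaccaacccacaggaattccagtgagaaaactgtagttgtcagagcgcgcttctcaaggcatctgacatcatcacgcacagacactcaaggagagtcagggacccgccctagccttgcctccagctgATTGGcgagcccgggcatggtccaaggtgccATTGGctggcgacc
Insig1: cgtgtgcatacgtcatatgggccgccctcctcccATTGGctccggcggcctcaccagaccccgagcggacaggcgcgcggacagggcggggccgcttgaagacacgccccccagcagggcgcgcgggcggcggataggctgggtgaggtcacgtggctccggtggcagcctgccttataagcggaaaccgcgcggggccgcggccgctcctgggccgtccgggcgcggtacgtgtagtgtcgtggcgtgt
Ch25h: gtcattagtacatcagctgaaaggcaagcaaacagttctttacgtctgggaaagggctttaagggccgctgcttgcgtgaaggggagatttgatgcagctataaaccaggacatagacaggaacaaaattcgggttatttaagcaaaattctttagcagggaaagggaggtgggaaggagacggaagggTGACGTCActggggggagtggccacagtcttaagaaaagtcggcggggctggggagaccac

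The sterol regulatory element was matched in Hmgcs1, from base 137 to base 129 before the start, and among 32851 promoter windows of this length 1.05% held a match. NF-Y boxes stood in the 3 sterol-pathway promoters, 3 times in Hmgcs1, 2 times in Idi1 and 1 time in Insig1, and 33.8% of all windows held at least 1. The Ch25h window held neither motif but had a cAMP response element from base 61 to base 54 before the start, a motif found in 1.55% of windows and searched after this sequence had been read. The GC box GGGCGG, which is not capitalised above, was matched in Hmgcs1, Idi1 and Insig1 and occurs in 32.7% of windows. No match overlapped a match to another motif. A match says that the letters are there, and a window without one says only that they are not in these 250 bases.

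Ch25h was the 1 member with a large difference, 5.17-fold higher in Rosa26-Foxm1 lung, whereas the enzymes of cholesterol synthesis and Insig1 differed by no more than 1.30-fold. These values were known when the genes were chosen, so they describe the 2 arrays and support nothing further. With 1 array per genotype, replicate spread is unknown and no test could be run. The only error that could be measured is the probe SD, the error of a single probe's log2 difference, taken from the disagreement between 2 probes of the same gene. It was 0.31 over 317 genes, with 0.23 for the brighter and 0.38 for the dimmer pairs of probes, and it leaves out differences between mice. Intensities are given as normalised between the arrays, on a scale where the array median of 1.00 is also the floor below which a probe was not taken as measured. All differences are log2 values, Rosa26-Foxm1 minus wild type. All 6 genes were above the floor on both arrays. At the 1.5-fold size, 1 of these 6 was higher and 0 were lower, where 7.1% of 9518 measured genes were higher by that size and 8.46% lower.

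**Figure D1:**
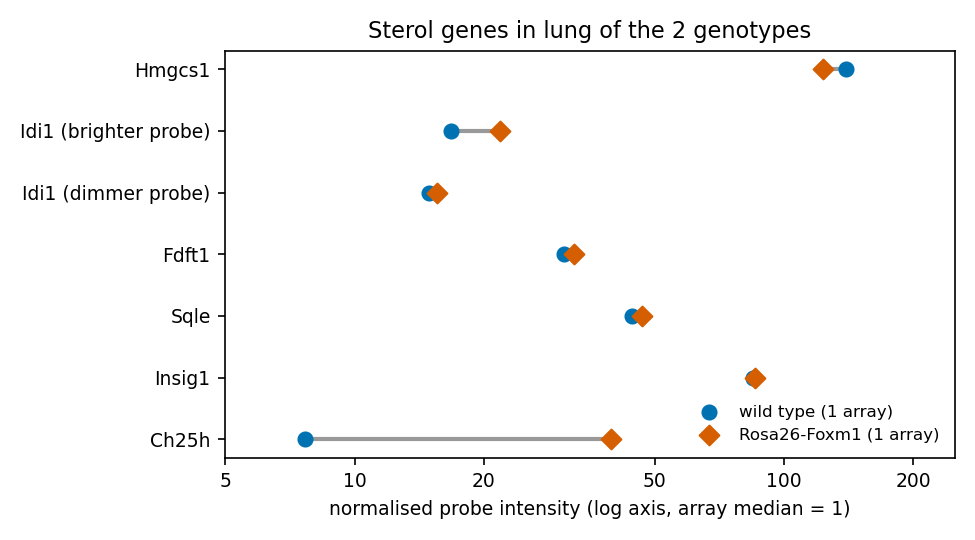
Normalised intensity of each probe of the 6 genes (horizontal log axis, array median 1) in wild-type (circles) and Rosa26-Foxm1 (diamonds) lung, 1 array each and therefore without error bars; probes differ in brightness for technical reasons, so only the 2 marks of a row should be compared. The marks lie close together in every row except that of Ch25h, which runs from 7.66 to 39.6.

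Hmgcs1 encodes the cytosolic HMG-CoA synthase, an early enzyme of the mevalonate pathway. Its probe read 140 in the wild type and 124 in the transgenic lung, and the deposited intensities were 132 and 128. The log2 difference of -0.18 is smaller than the probe SD. Hmgcs1 was the 1 member enzyme below 0, and 62.9% of measured genes had a higher difference.

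Idi1 encodes isopentenyl diphosphate isomerase, which interconverts the 5-carbon building blocks of isoprenoids. Its brighter probe read 16.8 in the wild type and 21.8 in the transgenic lung (deposited 16.8 and 21.9), a difference of 0.38 that is 1.21 times the probe SD. Its other probe read 14.9 and 15.6 (deposited 14.9 and 15.6), a difference of 0.06. Both probes were higher in Rosa26-Foxm1 lung, but they differ from each other by nearly as much as the brighter one differs from 0, and 33.9% of measured genes lay at least as far from 0 as the brighter probe.

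Fdft1 encodes squalene synthase, the first enzyme committed to sterols, which joins 2 farnesyl diphosphates. It read 30.8 in the wild type and 32.5 in the transgenic lung (deposited 30.3 and 32.8). Its difference was 0.08. Sqle encodes squalene epoxidase, the next enzyme and a second control point of the pathway. It read 44.3 and 46.8 (deposited 43.4 and 47.9), a difference of 0.08. The enzymes of these consecutive steps therefore gave almost the same small value, about 0.25 of the probe SD for Sqle and 0.24 for Fdft1, and 84.4% of measured genes were at least as far from 0 as Sqle.

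Insig1 is itself an SREBP target and retains the SREBP-Scap complex in the endoplasmic reticulum. It read 84.8 in the wild type and 85.7 in the transgenic lung (deposited 81.9 and 88.8). Its difference of 0.02 was the smallest of the members in size, and it was -0.09 after correction for gene length, so no direction can be given. Of all measured genes, 97.0% were at least as far from 0.

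Ch25h read 7.66 in the wild type and 39.6 in the transgenic lung (deposited 7.72 and 40.5). The log2 difference of 2.37 is 7.57 times the probe SD and lies 1.99 above that of Idi1, the highest enzyme. Ch25h ranked 19th from the top of 9518 measured genes; 0.189% of genes had a higher difference, beside 1.99% that were at least 2-fold higher. Both arrays were well over the floor, so the fold is not a lower bound, but it rests on a single probe. In tissue RNA, more cells that express a gene and more RNA per cell cannot be told apart.

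**Figure D2:**
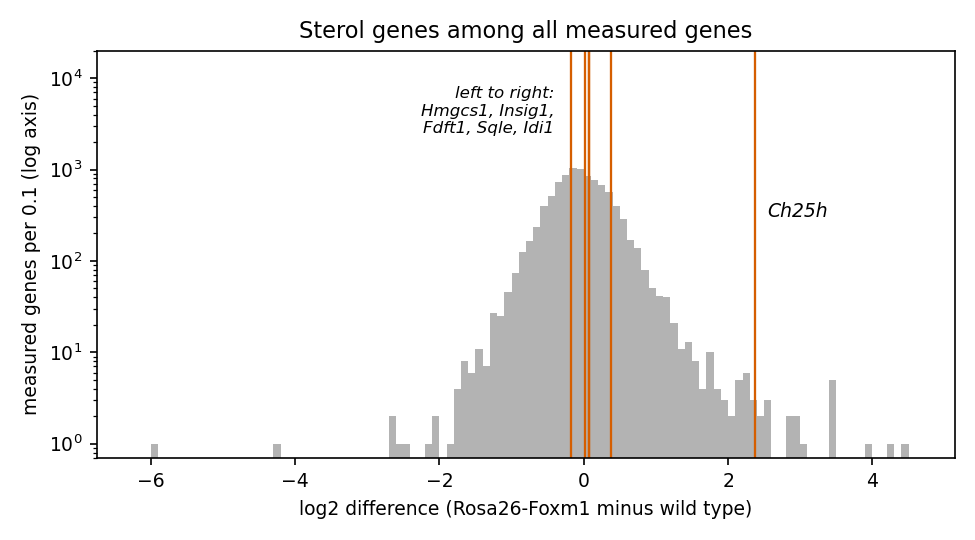
Number of measured genes (vertical log axis) per 0.1 of log2 difference between the 2 arrays (horizontal axis), over 9518 genes, with a vertical line for each of the 6 genes. Hmgcs1, Insig1, Fdft1, Sqle and Idi1 lie between -0.18 and 0.38, within the bulk of the genes, and Ch25h lies at 2.37 in the upper tail.

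The 5 genes above the floor on both arrays whose log2 difference was nearest that of Ch25h were Pigr (2.42), Vnn1 (2.32), Chil1 (2.31), Ms4a7 (2.30) and Ctsk (2.28). The likeness is the gap in a single difference between 2 arrays, at most 0.09 here, and carries no more than that these genes were about as many times higher. Pigr encodes the receptor that carries polymeric immunoglobulin across epithelium, Vnn1 a pantetheinase, Chil1 a chitinase-like protein of macrophages and epithelium, and Ctsk the lysosomal protease cathepsin K.

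The rest of the cholesterol synthesis pathway was also close to 0. Of 22 listed genes 14 had a probe, all of them above the floor, and 9 lay above 0 and 5 below. None was at least 1.5-fold apart, against 15.6% of all measured genes apart in either direction. That share includes many dim genes. With the floor at the 75th percentile, 238 of 5495 measured genes were higher by that size and 289 lower. The median of 0.08 compares with -0.06 over all measured genes, of which 43.9% were above 0. Without the members, the 10 other enzymes had a median of 0.14, with 6 above 0, 4 below and none 1.5-fold apart. Within 1 probe SD of 0 lay 10 of the 14 enzymes, and 57.2% of all measured genes.

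**Figure D3:**
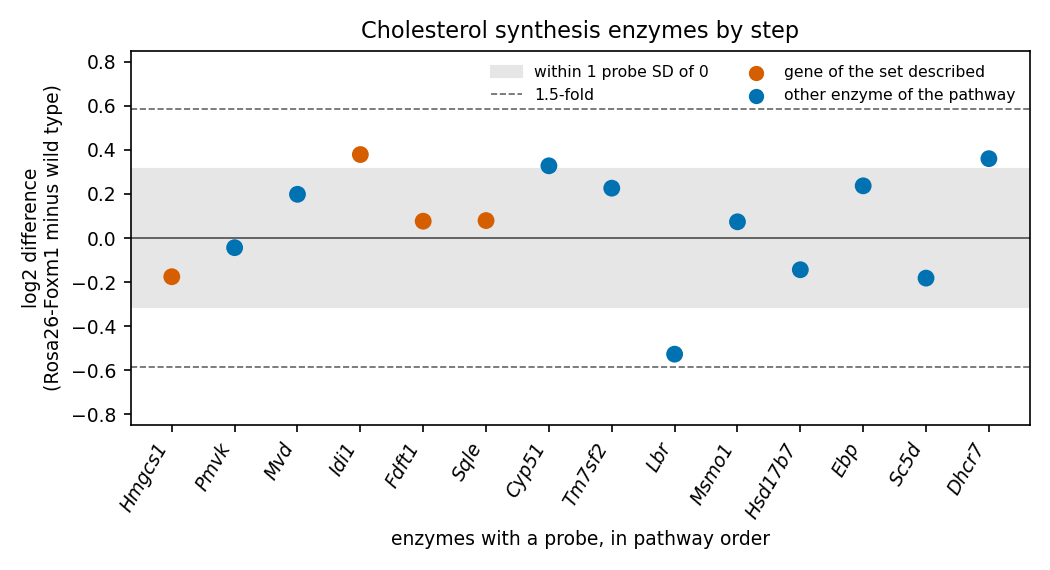
Log2 difference (vertical axis) of the 14 cholesterol synthesis enzymes with a probe, in approximate pathway order from left to right; the grey band is 1 probe SD (0.31) on either side of 0 and the dashed lines mark 1.5-fold. The points run from Lbr at -0.53 to Idi1 at 0.38, and none crosses a dashed line. They lie on both sides of 0 in the early and late stages, while Fdft1 and Sqle between them are both at 0.08.

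By stage, the 4 measured enzymes from acetyl-CoA to the isoprenoid diphosphates had 2 above and 2 below 0. Besides Hmgcs1 and Idi1 these were phosphomevalonate kinase, Pmvk, at -0.04 (32.2 in the wild type and 31.2 in the transgenic lung), and mevalonate diphosphate decarboxylase, Mvd, at 0.20 (12.8 and 14.7). Mvk, mevalonate kinase, had no named probe. After lanosterol, 8 enzymes had a median of 0.15, with 5 above 0.

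Among those 8, Dhcr7, which reduces the last double bond of one branch, was the highest at 0.36 (4.78 in the wild type and 6.14 in the transgenic lung). The lanosterol demethylase Cyp51 followed at 0.33 (10.3 and 13.0). The isomerase Ebp was at 0.24, the reductase Tm7sf2 at 0.23 and the methyl sterol oxidase Msmo1 at 0.07. Below 0 were Hsd17b7 at -0.14, the desaturase Sc5d at -0.18 and Lbr at -0.53 (59.4 and 41.2). Lbr encodes both a sterol reductase and the lamin B receptor of the nuclear envelope, and shares its reductase step with Tm7sf2, whose value had the opposite sign. Thus 4 of the 14 enzymes, Idi1, Dhcr7, Cyp51 and Lbr, were more than 1 probe SD from 0, 3 of them above it.

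The isoprenoid side branch, which makes geranylgeranyl diphosphate, dolichol and prenylated proteins, was also close to 0. Its 8 measured genes of 12 had a median of 0.05, with 4 above and 4 below 0. None was 1.5-fold apart, beside 15.6% of all measured genes, a share that would put few genes of so short a list apart. The highest were the farnesyltransferase subunit Fntb (0.32), Nus1 (0.26) and Dhdds (0.25), the last 2 being the subunits of the enzyme that starts dolichol synthesis. The lowest were Rce1 (-0.17), Dolk (-0.10) and Fnta (-0.08).

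The sterol-sensing genes lay on both sides of 0. Of 11 listed, 6 were measured, Insig1 among them, and none was 1.5-fold apart, beside 15.6% of all measured genes. Their median was -0.08, or 0.0018 with median scaling. The 5 other than Insig1 had a median of -0.17, with 2 above 0 and 3 below. Scap, the sterol-sensing escort of SREBP, was the lowest at -0.42 (159 in the wild type and 119 in the transgenic lung). Srebf1, which encodes SREBP-1, was at -0.17 (124 and 110) and the ubiquitin ligase Syvn1 at -0.17 (4.54 and 4.05). Insig2 was at 0.06 (16.0 and 16.7). Mbtps2, the protease that frees SREBP from the membrane, was at 1.22 in Rosa26-Foxm1 lung and below the floor in the wild type, so its difference of 0.28 is a lower bound. Srebf2 had no named probe.

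Around Ch25h, the other genes of oxysterol metabolism did not share its difference. The list held 11 genes, of which 8 were measured. The 7 other than Ch25h had a median of 0.04, with 1 past 1.5-fold upward and 0 downward, against 7.1% and 8.46% of all measured genes. That 1 was the sterol sulfotransferase Sult2b1, at 0.64 with dim signals of 1.64 in the wild type and 2.56 in the transgenic lung. Cyp27a1, the mitochondrial sterol 27-hydroxylase, was at -0.20 (41.0 and 35.7). The enzyme Cyp7b1, which turns 25-hydroxycholesterol into the ligand of Gpr183, was below the floor on both arrays. It read 0.986 in the wild type, just under the floor, and 0.126 in the transgenic lung. Hsd3b7, which degrades that ligand, was at -0.19 (18.2 and 16.0), and Gpr183, the receptor that guides B cells and dendritic cells, was at 0.04 (7.28 and 7.47). Cyp39a1 was at 0.04 and the brain hydroxylase Cyp46a1 at -0.53, with both of its readings close to the floor (1.47 and 1.02). Cyp7a1, the bile acid enzyme of liver, was at 0.06 as a lower bound, with wild type below the floor and the transgenic lung just over it; it was at 1.51 without a floor.

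LXR and its target and efflux genes lay on both sides of 0, most of them below it. Of 13 listed genes 11 were measured, 8 below 0 and 3 above, where 56% of all measured genes were below 0, and the median was -0.35. Within 1 probe SD of 0 lay 3 of the 11, and 57.2% of all measured genes. The cholesterol exporter Abca1 was the lowest at -0.64 (7.72 in the wild type and 4.97 in the transgenic lung), but -0.05 with a floor at the 75th percentile. The phospholipid transfer protein Pltp was at -0.59 (192 and 127) and the coactivator Ncoa1 at -0.37. Nr1h3, which encodes LXR alpha, was at -0.34 (71.7 and 56.5), and the exporter Abcg1 at -0.35 (116 and 91.6). Apolipoproteins lay above 0, Apoc1 at 0.88 (12.8 and 23.7), Apoe at 0.30 (536 and 662) and Apoc2 at 0.07, or -0.06 for Apoc2 after correction for gene length. At the 1.5-fold size 1 gene was higher and 2 were lower, where 7.1% of all measured genes were higher and 8.46% lower. With median scaling, 2 were higher and 1 lower.

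Of 16 genes of sterol uptake and transport 13 were measured, with a median of -0.17, 5 above 0, 8 below, and 2 at least 1.5-fold lower. Of all measured genes, 8.46% were lower by that size. The high-density lipoprotein receptor Scarb1 was 1.66-fold lower (44.9 in the wild type and 27.0 in the transgenic lung) and the sterol carrier Gramd1b 1.51-fold lower (6.11 and 4.05). Gramd1a was at -0.38. The highest were the lysosomal exporter Npc1 (0.33), the SREBP target Tmem97 (0.33) and Stard5 (0.25).

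Fatty acid synthesis, the neighbouring arm controlled mainly by SREBP-1, had a median of -0.17 over 15 measured genes of 18, or 0.02 with median scaling. Of these, 3 were at least 1.5-fold lower and 0 higher, against 8.46% lower and 7.1% higher over all measured genes. The desaturase Fads2 was at -0.66 (11.7 in the wild type and 7.39 in the transgenic lung), the phosphatidate phosphatase Lpin1 at -0.65 (8.84 and 5.62) and the acetyl-CoA synthetase Acss2 at -0.60 (7.99 and 5.25). The highest were Gpam (0.45), Elovl1 (0.20) and Thrsp (0.17).

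**Figure D4:**
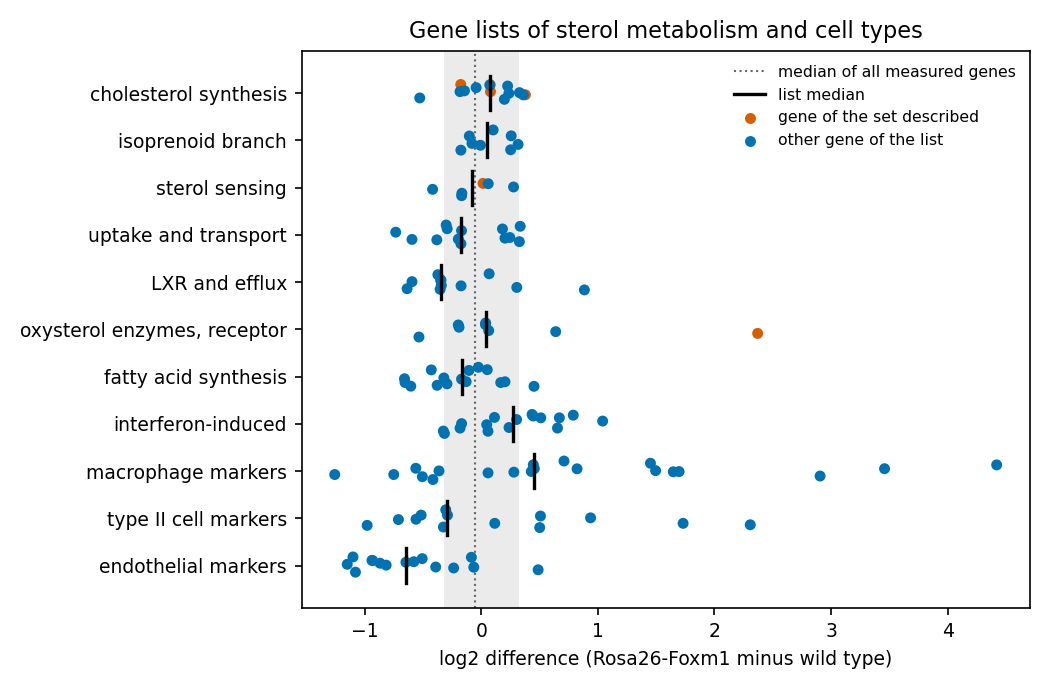
Log2 difference (horizontal axis) of every measured gene in 11 gene lists (rows, points spread vertically for legibility), with the list median as a black bar, the median of all measured genes (-0.06) as a dotted line and 1 probe SD on either side of 0 in grey. The cholesterol synthesis, isoprenoid and sterol-sensing rows lie close to 0. Ch25h stands alone at the right of the oxysterol row, and the macrophage row spreads from -1.26 to 4.42.

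Interferon-induced genes and macrophage markers also differed between the arrays, and their part in the value of Ch25h was not tested. The median of the interferon-induced list was 0.27 (16 of 25 genes measured), and 4 of its genes were past 1.5-fold upward and 0 downward. Over all measured genes, 7.1% were higher and 8.46% lower by that size. The ubiquitin-like Isg15 was at 1.04, its protease Usp18 at 0.79 and the immunoproteasome subunit Psmb8 at 0.67, against -0.32 for Rsad2, -0.32 for Ifih1 and -0.18 for Stat2. Macrophage markers had a median of 0.45 over 20 measured of 23, with 9 past 1.5-fold upward and 2 downward, and their summed intensity was 2808 in the wild type and 3253 in the transgenic lung. Their highest members were Gpnmb (4.42), Mmp12 (3.46) and Trem2 (2.91), and the lowest were Siglecf (-1.26), Marco (-0.75, below the floor in Rosa26-Foxm1 lung) and Adgre1 (-0.56). The macrophage markers Cd68, Csf1r and Itgax had no named probe, and no marker with a probe was below the floor on both arrays.

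Other cell types also moved beside the sterol genes, and their part was not tested either. Alveolar type II markers, from cells with high lipid synthesis, had a median of -0.29 over 13 measured of 15. They summed to 5481 in the wild type and 5661 in the transgenic lung. Bright probes weigh most in a sum, and 7 of the 13 were below 0, beside 56% of all measured genes. Chil1 (2.31), Fabp5 (1.73) and Sftpd (0.94) were at the top and Hc (-0.98), Etv5 (-0.71) and Slc34a2 (-0.56) at the bottom. Endothelial markers had a median of -0.65 over 15 genes, with 8 at least 1.5-fold lower and sums of 2567 and 1645. Of all measured genes, 8.46% were lower by that size. Vwf (0.49) was highest, and Calcrl (-1.15), Epas1 (-1.10) and Pecam1 (-1.08) were lowest. The medians were -0.43 for club cell markers over 8 genes, -0.38 for fibroblast markers over 10 and -0.49 for neutrophil markers over 8. The 9 measured B and plasma cell markers went both ways around a median of -0.07, with sums of 133 and 487. Past 1.5-fold were 4 upward and 3 downward, beside 7.1% and 8.46% of all measured genes. Jchain alone read 49.3 in the wild type and 413 in the transgenic lung, so the sums mainly follow its probe. The plasma cell genes Jchain (3.06), Mzb1 (1.59) and Tnfrsf17 (1.14, wild type below the floor) were the highest, and the B cell genes Cr2 (-1.62), Ms4a1 (-0.96) and Cxcr5 (-0.77) the lowest. Adipocyte markers, for fat carried along with lung, gave a measured value in 2 of 7 genes, Plin1 at 1.14 with wild type below the floor and Cidec at -0.16, and Lep and Retn were below the floor on both arrays.

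Deposited intensities had a median of 1.00 on each array and reached 2820 in the wild type and 2268 in the transgenic lung. After normalisation between the arrays, the lung markers Sftpc (1228 in the wild type and 859 in the transgenic lung) and Scgb1a1 (2544 and 1767) were bright on both. The single probe of Foxm1, the transgene's gene, read 1.13 in the wild type and 1.23 in the transgenic lung, close to the floor. Nothing in the labels says if this probe can bind the transgene, so it does not check the genotype labels.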

How the data were processed

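Lung RNA from 2 groups was measured on 1 one-colour array each. Per the labels' protocols, total RNA was DNase-treated and made into digoxigenin-labelled cRNA with an Applied Biosystems chemiluminescent kit. The authors deposited 1 linear intensity per probe, scaled to a median of about 1.00 on each array. How the images were read and how background and scale were handled is not stated in the labels. Of 33012 probes, 14411 had 1 gene in the platform annotation, 247 several and 18354 none listed; symbols were updated by gene ID to RefSeq (GRCm38.p6).

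From these, intensities were quantile normalised between the arrays, set to a floor at the 50th percentile (1.00) and taken to log2. A gene is its probe with the highest mean, and is measured if above the floor on at least 1 array. A difference with 1 array below the floor is a lower bound. With 1 array per group no test was made, and the precision is limited by the number of arrays. Counts use 1.5-fold for lists, beside 2-fold for all genes. The members and the 16 gene lists were chosen with earlier results of these data known. Text names the members, all measured synthesis and sensing genes, up to 3 genes at each end of most other lists, and the 5 genes nearest Ch25h; for the club cell, fibroblast and neutrophil lists only medians are given. Further genes of the oxysterol and LXR lists were named after their values were seen. The calculation was tested on simulated data. Python 3.11.15, numpy 2.4.6, pandas 2.3.3 and statsmodels 0.14.6 were used. Alternatives were median scaling, deposited values, loess (span 0.3), no floor or one at the 25th or 75th percentile, the median over probes, platform symbols and, added after seeing the data, correction for gene length.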

Additional observations from a re-analysis of the deposited data

How the results depend on the processing

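No paired analysis was possible because each group has 1 array. Under the 9 alternatives, Ch25h stayed between 2.13 and 2.42, and the other 5 members between -0.18 and 0.41, none of them 1.5-fold apart; all 54 member values were within 1 probe SD of those reported. Cholesterol synthesis had a median between 0.07 and 0.13 and no gene 1.5-fold apart under any of them. Small counts of list genes at the 1.5-fold size did move. Sterol sensing had 1 higher with the floor at the 25th percentile or none, where Mbtps2 was at 1.25. Uptake and transport had 1 lower with loess, the floor at the 75th percentile or gene length correction. LXR and efflux had 2 higher with median scaling or the deposited values, and 1 lower with those, loess, the floor at the 75th percentile or gene length correction. The oxysterol list had 1 higher when the floor was at the 75th percentile. At the 25th or without a floor it had 3 higher and 1 lower. Among the higher was Cyp7a1, at 1.51 without a floor. The lower gene was Cyp7b1, which read 0.986 in the wild type and 0.126 in the transgenic lung. Fatty acid synthesis had 1 lower with the floor at the 75th percentile or gene length correction, and the interferon list 2 higher with gene length correction. Fasn, Scd2 and Fads1 were above 0 with median scaling and the deposited values. Over all genes, 1361, 238 and 1827 were 1.5-fold higher with a floor at percentile 25, at 75 or without one, 1548, 289 and 2000 lower, 540, 44 and 792 at least 2-fold higher and 533, 21 and 827 lower, since the floor sets how many dim genes count. For other changes the cause was not tested. Dim probes such as Mbtps2, Cyp7a1, Cyp7b1 and Cyp46a1 limit what can be said of their genes.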

Other observations

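Of the genes that lie beside Ch25h on chromosome 19, those that were measured did not share its difference. Fas, the death receptor gene and the nearest named gene on one side, was 2.53-fold lower in Rosa26-Foxm1 lung (14.6 in the wild type and 5.79 in the transgenic lung), followed by Acta2, smooth muscle actin, at -0.40 and Stambpl1 at -0.03. On the other side Lipa, the lysosomal acid lipase gene, and Ifit2 were below the floor on both arrays, and Ifit1, an interferon-induced gene, was at 0.11. These 6 are the nearest protein-coding genes with a named probe, taken from the RefSeq gene order.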
